A study of Arabidopsis thaliana with 12 samples.

Results

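The genes described here encode proteins of the 2 photosystems and of their light-harvesting antenna in Arabidopsis thaliana. They are PSAN of photosystem I, PSBW, PSBY and PSB27 of photosystem II, and LHB1B2 (also called LHCB1.5) of the photosystem II antenna. They were chosen as the 5 genes of this kind whose array probe is annotated with a single gene, out of 692 such probes and 3439 probes in all. The probe numbers are 85 for PSAN (AT5G64040), 3529 for PSBW (AT2G30570), 2030 for PSBY (AT1G67740), 2306 for PSB27 (AT1G03600) and 2665 for LHB1B2 (AT2G34420). Total RNA of wild-type plants of ecotype C24 was hybridised to 1-channel arrays. The DCMU group of 6 columns came from plants under photosystem I-specific light that also received DCMU, and the comparison group of 6 from plants under that light alone. The groups are called PSI light + DCMU and PSI light. The labels give no age, tissue, dose, duration or array protocol.

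Photosystem II takes electrons from water and passes them through plastoquinone and the cytochrome b6f complex to photosystem I. DCMU, a herbicide, occupies the plastoquinone site of photosystem II and stops this flow at its start. The nuclear genes for photosystem and antenna proteins are known to respond to light and to signals from the chloroplast, including the redox state of the electron transport chain.

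Of the 5 genes, LHB1B2 alone passed the test after quantile normalisation, where 43.1% of all 3439 probes passed. LHB1B2, for a chlorophyll a/b-binding protein of the major photosystem II antenna, fell by 0.58 on the log2 scale with DCMU (SE 0.09, n = 3 each), to 0.667 of its level in PSI light (limma, adjusted p = 0.00881). That call was lost with no scaling, equal totals, median centring, the correction along the probe numbers or column pairs as a random block, where the fold change lay between -0.58 and -0.043. LHB1B2 also took a lower place among the probes of every DCMU column than in any PSI light column. Such separation was found for 44.2% of all probes. Ranked among the 692 single-gene probes alone, LHB1B2 overlapped between the groups. PSBW, for a small subunit that stabilises photosystem II with its antenna, had a deposited intensity of 23.8 to 30.1 in DCMU columns and 15.2 to 19.1 in PSI light columns. Its rank was almost the same in both, so quantile normalisation left a log2 fold change of 0.09. PSBY had a log2 fold change of 0.61, PSAN of 0.24 and PSB27 of -0.30, and none of these 3 passed the test.

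Values in a column were relative intensities on a linear scale with the brightest probe at 100. Medians of the columns were 0.386 to 0.504 with DCMU and 0.542 to 0.584 in PSI light, and totals were 3493 to 3652 with DCMU and 3756 to 3903 in PSI light. The probe standing at 100 was number 1431 in all DCMU columns and in PSI light columns 5 and 6, and number 4141 in PSI light columns 1 to 4. Columns numbered 1 and 2, 3 and 4, and 5 and 6 of a group correlated at Spearman's rho of 0.976 to 0.991, where the remaining pairs within a group reached 0.921 to 0.960. They were averaged as duplicates, which gives n = 3 per group. Means and SDs are over these duplicate means. Nothing in the labels shows that the samples were grown separately, and the p-values may therefore reflect technical spread alone. Over all probes the log2 fold change had a median of -0.06 when quantile normalised, -0.32 unscaled and -0.23 with equal totals. Of the probes past the threshold, 57.9% were lower with DCMU in quantile-normalised values. That share was 73.4% unscaled and 69.1% with equal totals, but 53.7% with median centring, 50.6% with cyclic loess and 48.1% after a correction for trends along the probe numbers.

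Of the 5 members, 1 passed an adjusted p of 0.05 after quantile normalisation, and it was lower with DCMU. Over all 3439 probes, 43.1% passed and 25.0% passed as lower. The members' share is not above this background. In bulk RNA, fewer cells of a type and less RNA per cell cannot be told apart. The tissue is not labelled. PSAN, PSBW, PSB27 and LHB1B2 stood among the brightest 224 probes in every column, where 224 is simply the lowest place that any of them took. PSBY stood lower, at places 431 to 747 with DCMU and 711.5 to 1366 in PSI light. PPD3, the only other listed photosynthesis gene with a single-gene probe, stood at 2944 to 3186 with DCMU and 1931 to 2321 in PSI light. These places do not settle the tissue. No gene of the root, flower or seed marker lists had a single-gene probe, so other tissues could not be checked this way.

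**Figure D1:**
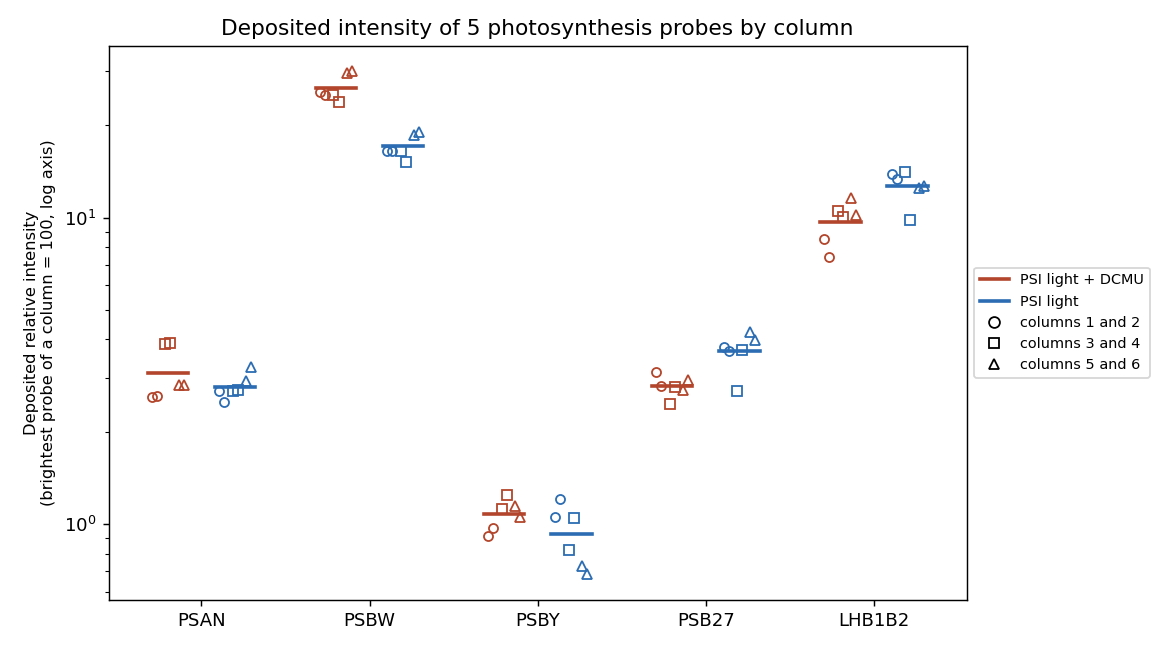
Deposited relative intensity (log axis, brightest probe of a column at 100) of the 5 probes in each of 6 PSI light + DCMU columns and 6 PSI light columns; points are columns, shapes mark duplicate pairs, lines are means over 3 duplicate pairs. PSBW lies at 23.8 to 30.1 with DCMU, above its 15.2 to 19.1 in PSI light, while the columns of the other 4 probes overlap between the groups.

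PSAN encodes an extrinsic subunit of photosystem I on the lumen side of the thylakoid, where plastocyanin docks. Its deposited intensity was 2.60 to 3.91 in DCMU columns, with a median of 2.84, and 2.50 to 3.25 in PSI light columns, with a median of 2.73. The groups overlapped, and DCMU columns 3 and 4 lay above all other columns of both groups. The normalised level averaged 1.66 ± 0.26 log2 units with DCMU and 1.42 ± 0.18 in PSI light (SD, n = 3 each). The difference of 0.24 (SE 0.17) had an adjusted p of 0.323 by limma and a 95% confidence interval of -0.20 to 0.67. The difference was 0.091 without DCMU columns 3 and 4, and 0.15 without PSI light columns 1 and 2. Its rank place, with 1 for the brightest of 3439 probes, was 123 to 189 with DCMU and 158 to 224 in PSI light. The exact permutation test of percentile ranks gave p = 0.3 (two-sided, 3 duplicate means against 3, where the smallest p possible is 0.1).

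PSBW encodes a single-span thylakoid protein of photosystem II that is known from mutants to be needed for stable supercomplexes of photosystem II with its antenna. All 6 DCMU columns (lowest 23.8, median 25.4, highest 30.1) lay above all 6 PSI light columns (lowest 15.2, median 16.5, highest 19.1), and the means of the log2 values correspond to a 1.55-fold higher intensity. Over all probes, 48.1% had deposited intensities that did not overlap between the 6 columns of each group. On unscaled values limma put PSBW 0.64 higher with DCMU on the log2 scale (SE 0.11, adjusted p = 0.0106). PSBW also passed with equal totals (0.73, adjusted p = 0.00995), with median centring (0.99, adjusted p = 0.0173) and with cyclic loess (0.42, adjusted p = 0.0281).

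The rank of PSBW moved little. It stood at place 14 in 5 of 6 DCMU columns and 3 of 6 PSI light columns, with a range of 13 to 14 with DCMU and 14 to 20 in PSI light. Quantile normalisation gives the same value to the same rank, and 8 of the 12 columns therefore held an identical 4.48 for PSBW. The normalised level averaged 4.48 ± 0.01 with DCMU and 4.39 ± 0.10 in PSI light, a difference of 0.09 (SE 0.06, adjusted p = 0.290, interval -0.06 to 0.24). Of the 20 probes that were brightest by their mean over all columns, PSBW among them, 17 had a higher deposited intensity with DCMU, with a median log2 difference of 0.35. After quantile normalisation the median over these 20 probes was 0.07. After quantile normalisation and a correction along the probe numbers PSBW stood at 0.31 (adjusted p = 0.0884).

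PSBY encodes a precursor that is cut into a pair of small membrane proteins of photosystem II, which lie beside cytochrome b559. Its intensities were 0.916 to 1.24 with DCMU (median 1.09) and 0.684 to 1.20 in PSI light (median 0.935). On this scale the groups overlapped. In rank they lay further apart, at places 431 to 747 with DCMU (median 486.5) and 711.5 to 1366 in PSI light (median 1001), with the lowest DCMU column inside the PSI light range. The 3 duplicate means did not overlap in rank.

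The normalised level of PSBY averaged 0.28 ± 0.24 with DCMU and -0.33 ± 0.27 in PSI light (SD, n = 3 each). The difference was 0.61 (SE 0.19, limma adjusted p = 0.0561, interval 0.11 to 1.11), or 1.53-fold. It exceeded the log2 fold change of 80.2% of all probes, and it just missed the threshold. Cyclic loess gave 0.70 (adjusted p = 0.0281) and the correction along the probe numbers 0.92 (adjusted p = 0.00159), both past the threshold. PSBY did not pass with no scaling (0.24, adjusted p = 0.378) or equal totals (0.33, adjusted p = 0.230). The mean percentile rank was 84.1 ± 4.2 with DCMU and 70.2 ± 7.8 in PSI light, with 100 for the brightest probe. The exact permutation test gave p = 0.1, the smallest that 3 against 3 allows.

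PSB27 encodes a lumenal protein that binds photosystem II while it is being assembled or repaired. Its intensities were 2.46 to 3.14 with DCMU (median 2.81) and 2.72 to 4.24 in PSI light (median 3.74). The overlap came from PSI light column 3, at 2.72, since the other 5 PSI light columns lay at 3.66 or above and all DCMU columns at 3.14 or below. The normalised level averaged 1.54 ± 0.07 with DCMU and 1.85 ± 0.22 in PSI light. The difference of -0.30 (SE 0.13) did not pass limma's test (adjusted p = 0.114, interval -0.63 to 0.02). Without PSI light columns 3 and 4 it was -0.42 and passed (limma, adjusted p = 0.0376), where 1294 of 3439 probes were called. With median centring it was -0.026. Its rank place was 159 to 200 with DCMU and 113 to 193 in PSI light, and the 3 duplicate means of each group did not overlap (exact permutation p = 0.1).

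LHB1B2 encodes an Lhcb1 protein, a component of the LHCII trimers that collect most light for photosystem II and that can move to photosystem I in state transitions. Its deposited intensity was 7.43 to 11.6 with DCMU (median 10.1) and 9.80 to 14.1 in PSI light (median 13.0). The groups overlapped through PSI light column 4 alone, at 9.80, where column 3, its duplicate, stood at 14.1, a gap of 1.44-fold. In rank every DCMU column (places 36 to 51, median 40) stood below every PSI light column (places 20 to 34, median 24). Such separation of 6 columns from 6 was found for 44.2% of all probes. Ranked among the 692 single-gene probes alone, the groups overlapped, at places 7 to 10 with DCMU and 6 to 8 in PSI light.

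The normalised level of LHB1B2 averaged 3.23 ± 0.14 with DCMU and 3.81 ± 0.10 in PSI light (SD, n = 3 each), and the 95% confidence interval of the difference was -0.83 to -0.34. The mean percentile rank was 98.8 ± 0.16 with DCMU and 99.3 ± 0.07 in PSI light (exact permutation p = 0.1). The call depended on the scaling. LHB1B2 passed with cyclic loess (-0.48, adjusted p = 0.0211) and did not pass with no scaling (-0.39, adjusted p = 0.0757), with equal totals (-0.30, adjusted p = 0.163) or with median centring (-0.043, adjusted p = 0.941). The correction along the probe numbers put it at -0.42, also short of the threshold (adjusted p = 0.0593). Lhcb1 proteins come from several near-identical genes that can share a probe, so the value is uncertain as that of a single gene. The neighbouring gene on the chromosome, LHB1B1, is another Lhcb1 gene and had no single-gene probe.

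**Figure D2:**
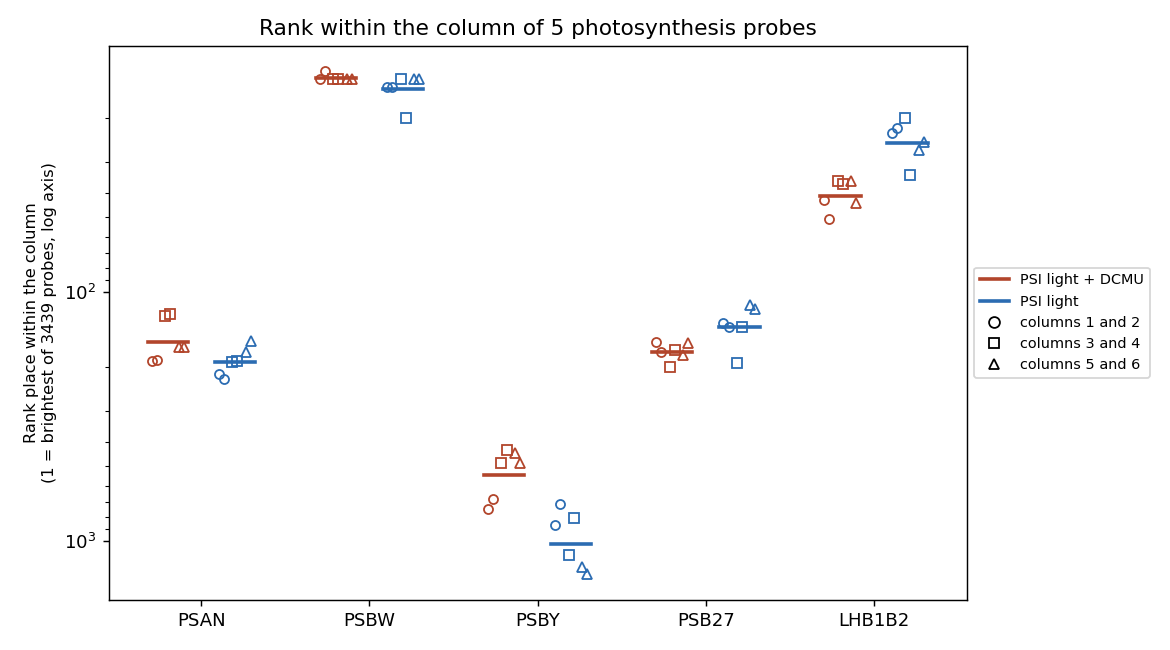
Rank place of each probe within its column (log axis, 1 for the brightest of 3439 probes, brightest at the top), in 6 PSI light + DCMU columns and 6 PSI light columns; shapes mark duplicate pairs and lines are means over 3 pairs. LHB1B2 lies at places 36 to 51 with DCMU and 20 to 34 in PSI light, without overlap, and PSBW at 13 to 14 with DCMU and 14 to 20 in PSI light.

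In duplicate means, the ranks of 3 members (PSBY, PSB27 and LHB1B2) did not overlap between the groups. The same held for 57.7% of all probes, so this share is near the background. In deposited intensity, the duplicate means of PSBW, PSB27 and LHB1B2 did not overlap, against 59.2% of all probes. The sets differ because rank placed PSBY and not PSBW apart, and intensity did the reverse.

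Which members passed changed with the scaling, and also with other settings of the fit that are described at the end. With no scaling, with equal totals and with median centring, PSBW was the 1 member called, and 46.4%, 44.5% and 42.3% of all probes were called in these settings. With cyclic loess, PSBW and PSBY were called as higher and LHB1B2 as lower, where 45.6% of all probes were called. After the correction along the probe numbers PSBY was the 1 member called, with 47.1% of all probes called. All 5 members kept the sign of their fold change in each of these settings. The 50 probes on either side of each member in the probe numbering, together with it, had median log2 fold changes of -0.34 to -0.20 after quantile normalisation, below the -0.06 of all probes. Set against these neighbours, PSBY stood 0.95 higher, PSAN 0.48 higher and PSBW 0.29 higher, while PSB27 stood at -0.08 and LHB1B2 at -0.37. The part of probe position in these differences was not tested further.

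**Figure D3:**
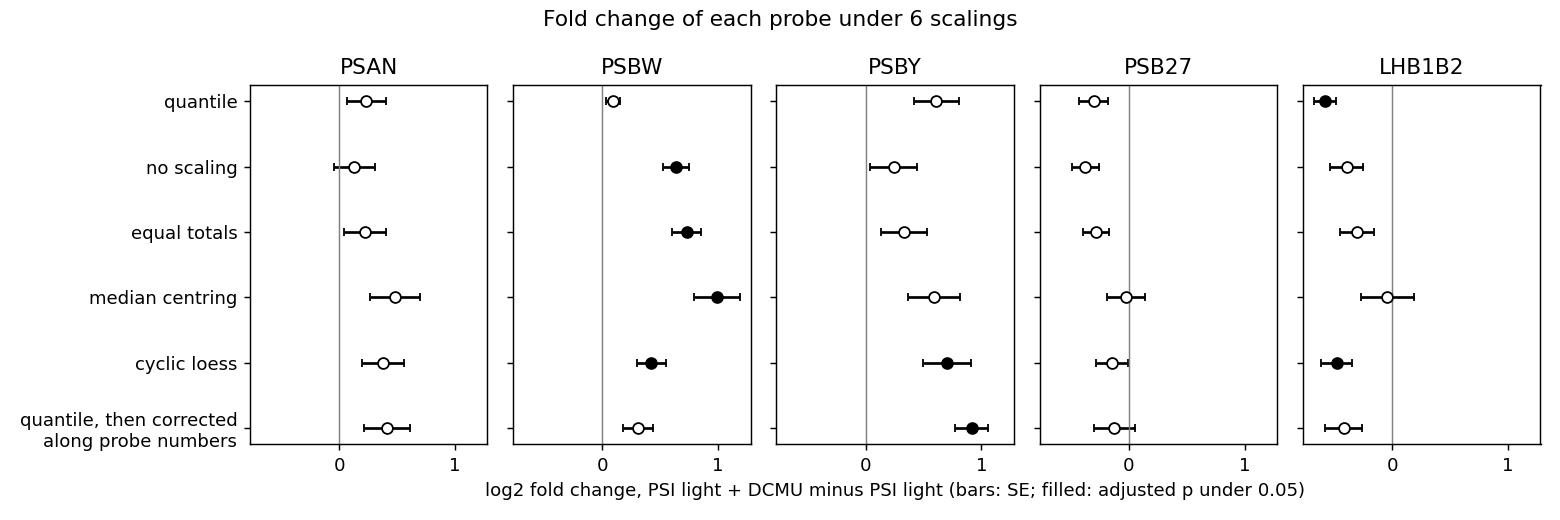
Log2 fold change (PSI light + DCMU minus PSI light) of each probe in limma's fit of duplicate means under 6 scalings; bars are SE, and filled points have an adjusted p under 0.05. PSBW runs from 0.09 after quantile normalisation to 0.99 with median centring, and LHB1B2 from -0.58 to -0.043 in the same settings.

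Ratios between members within a column do not depend on any factor that scales the whole column. They do depend on differences between columns that vary with brightness. Of the 20 brightest probes, PSBW among them, 17 were higher with DCMU unscaled (median log2 difference 0.35). Over all probes the unscaled median was -0.32. The part of this in the ratios was not tested. All 10 pairs were compared on the deposited intensities. The ratio of PSBW to LHB1B2 was 2.37 to 3.39 in DCMU columns (median 2.76) and 1.17 to 1.55 in PSI light columns (median 1.36), without overlap. It was 2.04-fold higher with DCMU (log2 difference 1.03, SE 0.15, n = 3 each). The ratio of PSBW to PSB27 was 8.15 to 10.9 with DCMU (median 9.57) and 4.11 to 6.08 in PSI light (median 4.45), also without overlap, and 2.02-fold higher with DCMU (log2 difference 1.01, SE 0.10). Both differences were larger than the spread between columns. The exact permutation test gave p = 0.1 for each, the smallest that 3 duplicate means against 3 allow, or 0.167 adjusted over the 10 pairs, so neither passed.

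The ratio of PSBY to LHB1B2 was 0.0988 to 0.130 with DCMU and 0.0538 to 0.107 in PSI light, a 1.55-fold higher ratio with overlap in 1 PSI light column. That of PSAN to LHB1B2 was 0.246 to 0.390 with DCMU and 0.187 to 0.279 in PSI light, 1.44-fold higher. The ratio of PSB27 to LHB1B2 overlapped between the groups, at 0.234 to 0.379 with DCMU and 0.193 to 0.378 in PSI light, with a log2 difference of 0.02 (SE 0.20, exact permutation p = 1, unadjusted). This does not show that the pair changed alike. Of the 10 ratios, 6 did not overlap between the duplicate means of the groups and 2 did not overlap between the columns. Over all pairs of single-gene probes above 0 in every column the shares were 57.5% for duplicate means and 44.1% for columns, so 6 of 10 is near the first share and 2 of 10 is under the second. The 10 ratios are all pairings of 5 probes and are not independent, and PSBW is in both ratios without overlap between columns. After quantile normalisation the log2 difference for PSBW to LHB1B2 was 0.67 and that for PSBW to PSB27 was 0.39. That for PSBY to LHB1B2 was 1.20, against 0.64 on deposited intensities. Quantile normalisation also turned the sign for 2 ratios. PSBW to PSBY stood at -0.52, against 0.40 on deposited intensities, and PSAN to PSBW at 0.15, against -0.51. None of the 10 ratios could pass the exact permutation test at 0.05, since the smallest p possible is 0.1, so the test cannot decide whether they changed.

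**Figure D4:**
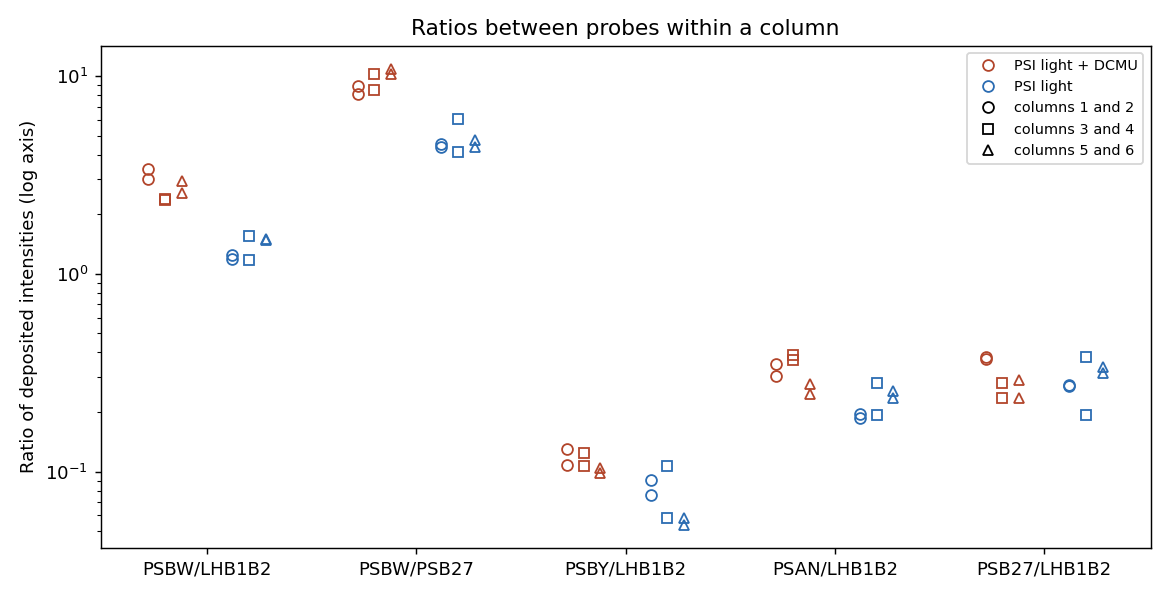
Ratio of deposited intensities of 2 probes within a column (log axis) for 5 of the 10 pairs, in PSI light + DCMU and PSI light columns; shapes mark duplicate pairs. PSBW/LHB1B2 lies at 2.37 to 3.39 with DCMU and 1.17 to 1.55 in PSI light, and PSB27/LHB1B2 overlaps.

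Few other genes of the photosynthetic apparatus could be read on this array. Lists of photosystem, antenna, electron carrier, ATP synthase, PsbP family, antenna-like and thylakoid kinase genes held 111 genes, of which 6 had a single-gene probe: the 5 members and PPD3. Of these 6, 2 passed as lower, none passed as higher (limma, both with adjusted p under the threshold), and 4 did not pass; at an unadjusted p PSBY also passed, at 0.0252. Lower calls made up 25.0% of all probes, and calls in either direction 43.1%, so 2 of 6 is near the background. The median log2 fold change of the 6 was -0.11, against -0.06 for all probes. PPD3 (AT1G76450), for a lumenal protein with the domain of the extrinsic subunit PsbP, had intensities of 0.0817 to 0.184 with DCMU and 0.345 to 0.511 in PSI light, with no overlap. It fell by 1.60 (SE 0.19, adjusted p = 0.00373), with 2 DCMU columns at the floor. A further 5 probes were annotated with several genes that include genes of these lists and cannot be named. Antenna genes were named for 1 of these, which was 0.75 lower with DCMU (log2 fold change -0.75, SE 0.10, adjusted p = 0.00448), and the remaining 4 did not pass.

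The single-gene probes most like each member were found by Pearson correlation of normalised log2 levels over the 12 columns, among 546 probes above the floor in every column. The correlations are descriptions, since the columns hold duplicates and share the contrast. LHB1B2 was closest to AGL26 (r = 0.94) and TCP15 (r = 0.91), which had log2 fold changes of -0.29 and -0.81. PSBY was closest to AT2G21720 (r = 0.93) and AT5G56850 (r = 0.91), with log2 fold changes of 0.75 and 0.70. PSB27 was closest to AT5G52660 and AT2G04700 (r = 0.85 and 0.84), and PSAN to AT3G32930 and AT4G31930 (r = 0.82 and 0.79). PSBW, which had the same normalised value in most columns, was closest to AT1G08845 and AT2G46300 (r = 0.77 and 0.70).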

How the data were processed

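The authors deposited linear intensity values for 3439 probes in 12 columns, each scaled to its brightest probe; neither the labels nor the file give the image analysis or any background step. Intensities were quantile normalised between arrays, given a floor of 0.110 (log2 -3.19), which is percentile 5 of the values above 0, and log2-transformed; no value of the 5 members was at this floor. Columns 1 and 2, 3 and 4, and 5 and 6 of a group were averaged. PSI light + DCMU was compared with PSI light by limma 3.58.1 in R 4.3.3 over all 3439 probes, with Benjamini-Hochberg adjustment at 0.05. The fit, but not the normalisation, was tested on simulated data with independent noise and fewer changed probes than were called here. Ranks and ratios came from the deposited values and were tested with exact permutation in scipy 1.17.1. The correction along the probe numbers subtracted a running median over 50 probes on either side of each column's deviation from the mean column. Probes were named through the platform annotation and TAIR10.1: 692 had a single gene, 870 had several and 1877 had none.

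The named genes were the members, every gene of the fixed lists with a single-gene probe, and the 2 single-gene probes most correlated with each member. Members, lists and alternatives were chosen with earlier results of these data known. Same-numbered duplicate pairs of the groups deviated together at 0.099, 0.306 and 0.267, all positive. The main fit left out pairing by number because 1 of these is under 0.1, which is an arbitrary cut. With the pair number as a block on duplicate means, limma's adjusted p was 0.0460 for LHB1B2, 0.137 for PSBY and 0.0875 for PSB27. The number of arrays limits the precision.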

Additional observations from a re-analysis of the deposited data

Results flagged for a closer look

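Among 30 sets of 6 columns (5 genes, each as normalised level, percentile rank and log2 deposited intensity, in both groups), 7 held a column whose gap to its nearest neighbour, as a share of the whole range, exceeded Dixon's 95% critical value. Chance picks about 1 in 20 independent sets of independent values. That rate does not hold here, since each set is made of 3 duplicate pairs and the 3 measures of a gene share their data.

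For PSBW with DCMU, column 2 stood at 4.51 against 4.48 in the other columns, or at percentile 99.7 against 99.6, a step of 1 rank place. The other columns were tied in both measures, so a step of any size would have been flagged. For PSBW in PSI light, column 4 stood at 4.10 against 4.42 to 4.48, or at percentile 99.4 against 99.6. For PSB27 in PSI light, column 3 stood at percentile 94.4 against 96.0 to 96.7, and at a log2 deposited intensity of 1.44 against 1.87 to 2.08. For LHB1B2 in PSI light, column 4 stood at a log2 deposited intensity of 3.29 against 3.65 to 3.82. These PSI light columns are 3 and 4, which were averaged as duplicates. Without this pair the log2 fold change was 0.04 for PSBW, -0.42 for PSB27 and -0.61 for LHB1B2.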

How the results depend on the processing

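All 5 members kept the sign of their log2 fold change in every alternative run, and PSAN did not pass in any; PSAN was lowest among the scalings at 0.13, unscaled, and highest at 0.48, median-centred, and ran from 0.091 to 0.35 without 1 column pair. PSBW passed with no scaling (0.64), equal totals (0.73), median centring (0.99) and cyclic loess (0.42). PSBY, at 0.61, passed over 12 columns (limma, adjusted p = 0.00251) and with the replicate block over 12 columns (0.0185), which both count duplicates as samples. These fits called 2109 and 2224 of all 3439 probes, in that order. With the replicate block on duplicate means PSBY did not pass (0.137). It passed with column pairs as a random block (0.0176), with dim probes left out (0.0310) and with trended, robust variance (0.0458). In that order, 1754 of 3439, 798 of 1720 and 1531 of 3439 probes were called. PSBY also passed with cyclic loess (0.70), the correction along the probe numbers (0.92) and an offset in place of the floor (0.55), where 1568, 1620 and 1590 of 3439 probes were called. PSBY ran from 0.47 to 0.75 without 1 column pair, and passed without DCMU columns 1 and 2, where 1202 of 3439 probes were called. PSB27, at -0.30, passed over 12 columns with and without the replicate block, in fits that count duplicates as samples. With that block on duplicate means PSB27 did not pass (limma, adjusted p = 0.0875). It ran from -0.42 to -0.20 without 1 column pair. LHB1B2 did not pass with column pairs as a random block (-0.58), no scaling (-0.39), equal totals (-0.30), median centring (-0.043) or the correction along the probe numbers (-0.42). Without 1 column pair LHB1B2 passed each time, where 1144 to 1294 of 3439 probes were called. The causes were not tested. With dim probes left out, 798 passed of the 1720 probes tested. With the replicate block over duplicate means 1394 of 3439 passed, LHB1B2 among them (limma, adjusted p = 0.0460) and no other member. Over 6 columns against 6, which counts duplicates as samples, the exact permutation p of the percentile rank was 0.00433 for PSBY (difference 14.0), 0.0260 for PSB27 (-1.03) and 0.00216 for LHB1B2 (-0.47).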
